A study of Homo sapiens with 4 samples.

Results

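The 37 genes described here encode proteins that carry human cells from G1 into S phase and copy their DNA, and their RNA was measured in pull-outs made with miR-26a. The members are a list of 37 symbols chosen by function, and all 37 were found among the 25685 genes of the series. The sequenced RNA was what streptavidin beads had held back from DU-145, an established human prostate cancer line that does not depend on androgen and is known to lack functional retinoblastoma protein. In the 2 biotin libraries the cells had received 60 nM of a mix of miR-26a duplexes with a biotin at the 3′ end and a thiouridine, a base that crosslinks under long-wave UV, at nucleotide 7 or 17. In the 2 untagged libraries they had received a miR-26a duplex without biotin or thiouridine at the same dose, so raised miR-26a was common to both groups and biotin and thiouridine cannot be told apart. All cells were transfected 24 h after seeding, irradiated at 365 nm with 2 J/cm2 the day after, and their RNA was kept on beads for 4 h. The series describes 2 biological replicates per group of this single cell line, and no library of input RNA was analysed here. The values therefore describe RNA recovered on beads, not the amount of RNA in the cells.

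In G1, D-type cyclins with CDK4 and then CDK2 with its own cyclins phosphorylate the retinoblastoma family, which frees E2F transcription factors to switch on the genes of DNA synthesis. Origins are licensed by the origin recognition complex and CDT1, geminin blocks CDT1 afterwards, and CDC45 with the GINS complex turns the loaded MCM ring into a working helicase. Replication factor C then loads the PCNA clamp, polymerases alpha, delta and epsilon copy the strands, and FEN1 with DNA ligase I joins the pieces of the lagging strand. A microRNA finds most of its mRNAs through its seed, the bases near its 5′ end, and miR-26a is known for targets among cell-cycle genes, CCND2, CCNE1, CCNE2, CDK6 and CDC6 among the published ones.

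The sequence on which the pull-out was built is printed with its seed, nucleotides 2 to 8, in capitals (RefSeq, GRCh38.p14; the same mature sequence is encoded at chr3:37969413-37969434 on the plus strand and chr12:57824658-57824679 on the minus strand).
miR-26a-5p: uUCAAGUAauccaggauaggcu
The perfect match to that seed in DNA letters is TACTTGA, and it was searched on the sense strand of the 3′ untranslated regions of GENCODE 29. A match is a string of letters and no proof of binding. All 37 genes could be searched, and 7 of them (18.9%) held the site, 8 sites in all, against 1124 of 9378 searched genes among all that were tested (12.0%). Among the 35 members that were tested, 5 held it (14.3%), a share near that of all tested genes. The sites are printed because they show where the tagged RNA could pair with these mRNAs, with the match in capitals and the bases around it in lower case (GRCh38).
CHAF1A, chr19:4443078-4443084, plus strand: ccccacagagcagaTACTTGAaccgactc
E2F7, chr12:77021573-77021579, minus strand: gggtataacttttaTACTTGAatctacct
FEN1, chr11:61796653-61796659, plus strand: gctagtccctttttTACTTGAtcttaatg
PCNA, chr20:5114966-5114972, minus strand: aatttaaataaagtTACTTGAatttcaaa
RFC3, chr13:33836901-33836907, plus strand: ttcactaatttaagTACTTGAgactcttg
RFC3, chr13:33837045-33837051, plus strand: tggaccaaagggttTACTTGAcaaatttg
SKP2, chr5:36183818-36183824, plus strand: aaagtgctaaatacTACTTGAaattattg
SLBP, chr4:1693365-1693371, minus strand: taagtccaagaaagTACTTGAagctctct
In 5 of the 7 genes (CHAF1A, E2F7, PCNA, SKP2 and SLBP) an A follows the match, opposite nucleotide 1 of the microRNA. The coding sequences of RFC1 and SKP2 also held the string, 2 genes of 37 (5.41%), against 6.75% of the searched tested genes.

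Depth was an estimated 17560000 and 23640000 mapped reads in the biotin libraries and 16030000 and 17830000 in the untagged ones, so biotin replicate 2 was the deepest. Expression is given as gene FPKM, read fragments scaled to transcript length and library depth, summed over a gene's transcripts. A count of 3 reads over 1 kb corresponds to 0.127 to 0.187 FPKM, and each member was backed by an estimated 33 to 3552 reads in each library, so the errors of the low members are partly counting error. The 11 markers chosen for this epithelial line were KRT8, KRT18, KRT19, KRT7, EPCAM, CDH1, EGFR, CD44, S100A6, ITGB4 and VIM. Each had at least 1 FPKM in 2 or more libraries. The list is not confined to epithelial genes, since it includes VIM, at 124 to 272 FPKM over the 4 libraries. EPCAM and CDH1 were low, at 1.82 to 2.97 and 1.70 to 2.60 FPKM. The luminal genes KLK2 and KLK3 were listed at 0 in all 4 libraries. So were the blood markers PTPRC, CD3E, HBB and HBA1 and the neuroendocrine markers CHGA and CHGB. Summed FPKM of these 11 markers was 1109 to 1229 in the biotin and 2071 to 2143 in the untagged libraries. Most of it was S100A6, a calcium-binding protein gene, at 832 and 645 FPKM in the biotin and 1722 and 1509 FPKM in the untagged libraries. Of the other 10 markers, EGFR and CD44 were higher in both biotin libraries than in both untagged ones. KRT18, KRT19, KRT7, ITGB4 and VIM were lower in both biotin libraries than in both untagged ones, and KRT8, EPCAM and CDH1 overlapped between groups. The summed list of 7 fibroblast and smooth-muscle markers, nearly all of it the actin-binding protein gene TAGLN, was 41.1 to 49.2 FPKM in the biotin and 6.01 to 8.07 in the untagged libraries, with DCN and LUM at 0 in all 4. The other marker lists summed to 4.87 and 5.00 FPKM in the biotin and 7.46 and 7.49 in the untagged libraries for luminal prostate, 1.95 to 3.22 against 1.88 to 2.35 for blood, and 7.21 to 7.90 against 3.84 to 5.19 for neuroendocrine cells. Their part in the results was not tested.

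Within each library the 37 genes spanned low to moderate levels. Their median was 6.35 and 5.28 FPKM in the biotin libraries, against 5.96 and 5.39 FPKM in the untagged ones. The 2 groups' totals over the 37 genes overlapped, at 304.9 and 283.9 FPKM in the biotin libraries against 302.1 and 320.9 in the untagged ones. At least 1 FPKM was reached in all 4 libraries by 34 genes, and LIG1 reached it in 1 library of each group. E2F7 and CHAF1A stayed below the limit for testing, which was 1 FPKM in at least 2 libraries, so 35 genes were tested.

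**Figure D1:**
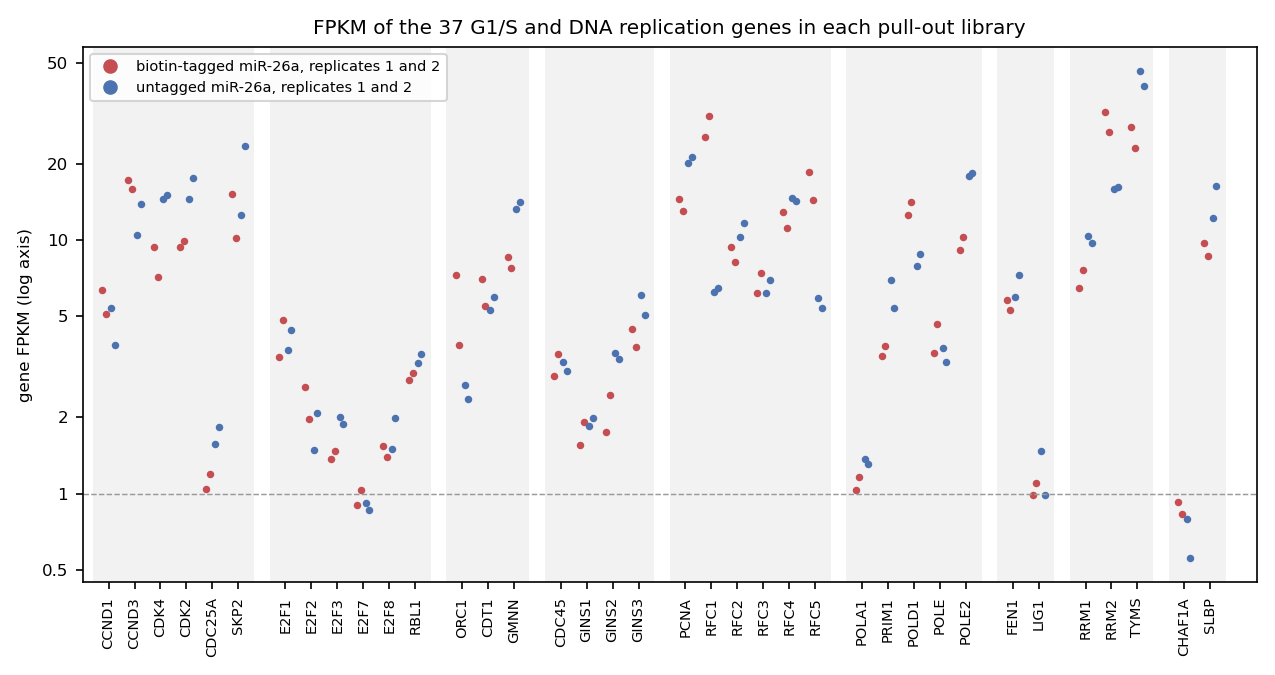
Gene FPKM on a log axis for each of the 37 genes in the 2 biotin libraries (red) and the 2 untagged libraries (blue), grouped by role from G1 regulators at the left to histone supply at the right; the dashed line marks 1 FPKM. RFC1 and RFC5 stand furthest above their untagged values, and E2F7 and CHAF1A lie about the dashed line or below it.

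The comparison of biotin with untagged pull-outs asked which RNAs came down with the tagged microRNA. Of the 35 tested genes 4 were higher in the biotin pull-out (RFC1, RFC5, RRM2 and POLD1) and 6 were lower (POLE2, CDK4, TYMS, GMNN, CDK2 and PRIM1), and 25 did not pass (limma on log2(FPKM + 1), two-sided, Benjamini-Hochberg adjusted p below 0.05 over 9940 tested genes). That is 11.4% higher and 17.1% lower, beside 13.1% higher and 9.32% lower among all tested genes, of which 22.5% passed in either direction. The share of increases was thus near the background, and that of decreases rests on 6 genes. The median log2 difference of the 35 genes was -0.18, beside -0.06 over all tested genes. The groups did not overlap in 24 of the 35 genes, beside 67.1% of all tested genes. Both biotin libraries lay above both untagged ones in 6 (17.1%, beside 29.4% of all tested genes) and below them in 18 (51.4%, beside 37.7%). RFC1 and RFC5 also had at least 2-fold more FPKM + 1 in the lower biotin library than in the higher untagged one, which 5.08% of all tested genes were, and 0 members were 2-fold lower, beside 1.21%. With 2 libraries per group no exact permutation test can give a p below 0.333, so the calls rest on the spread that limma pools over genes. A fit with a library left out has 1 library in that group, so its spread comes from the other group and from pooling over genes, and the lone library is assumed to vary alike. When each library was left out in turn, RFC1 passed 4 times, RFC5 passed 2 times, and the other 8 called genes passed 0 times.

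**Figure D2:**
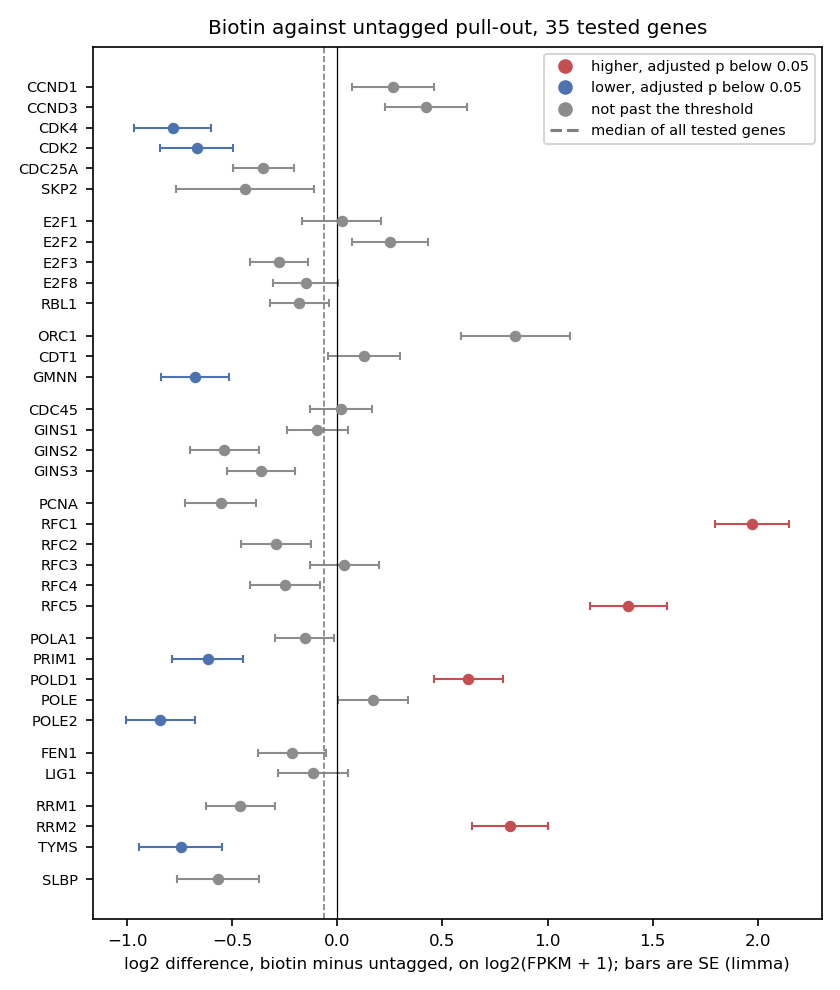
Log2 difference of biotin minus untagged libraries with its SE for the 35 tested genes, by role; the dashed line is the median of all tested genes. RFC1 at 1.97 and RFC5 at 1.38 stand apart on the right, while the 6 genes called lower lie between -0.84 and -0.62.

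None of the 10 called genes held the seed site in its 3′ untranslated region, beside 12.0% of all searched tested genes. A count over 10 genes is too small to set apart from that share, and the difference was not tested. The 7 genes printed with a site were FEN1, PCNA, RFC3, SKP2 and SLBP, which were tested and did not pass, and CHAF1A and E2F7, which were too low to test. RFC1, the largest increase, held the string only in its coding sequence. The 5 tested genes with a site had a median log2 difference of -0.44 and the other 30 one of -0.15. All tested genes had medians of -0.039 with a site and -0.074 without. The median of the 5 was the summed value of SKP2. Its searched transcript was not lower, at 8.04 and 10.15 FPKM in the biotin and 7.55 and 7.77 FPKM in the untagged libraries (0.21 ± 0.17 when fitted alone). Its shorter transcript had 7.11 and 0 FPKM in the biotin and 4.95 and 15.8 FPKM in the untagged libraries.

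Among the regulators of G1, 2 of 6 fell and 0 rose, beside 9.32% lower and 13.1% higher among all tested genes. A group of 6 genes is too small to set apart from those shares. The role groups below, of at most 6 genes each, are no larger. Both genes that fell were kinases. CDK4, the partner of D-type cyclins (hg38 chr12:57747727-57752447), had 9.35 and 7.16 FPKM in the biotin libraries, against 14.5 and 15.1 FPKM in the untagged libraries. Both biotin values lay well under both untagged values, a log2 difference of -0.78 ± 0.18 (SE; limma adjusted p = 0.0307, and 0.0564 to 0.140 with a library left out). CDK2, which acts with cyclins E and A (chr12:55966769-55972789), had 9.42 and 9.88 FPKM in the biotin libraries, against 14.5 and 17.5 FPKM in the untagged ones. It too was apart in both groups (-0.67 ± 0.17, limma adjusted p = 0.0403, and 0.0974 to 0.162 with a library left out). This separation was that of the CDK2 sum. Its most abundant transcript overlapped between groups, at 6.05 and 9.88 FPKM in the biotin and 9.68 and 10.05 FPKM in the untagged libraries. Fitted alone, that transcript did not pass (-0.31 ± 0.27, limma adjusted p = 0.526). The other detected CDK2 transcript had 3.4 and 0 FPKM in the biotin and 4.8 and 7.4 FPKM in the untagged libraries. The D-type cyclins CCND1 and CCND3 did not follow the kinases. Among the cyclins E and A, which belong to the wider list below, CCNA2 fell as CDK2 did (-0.77 ± 0.16, limma adjusted p = 0.0232). CCNE2 (-0.50 ± 0.21) and CCNE1 (0.12 ± 0.18) did not pass. CCND1, cyclin D1, had 6.35 and 5.10 FPKM against 5.39 and 3.86 FPKM in biotin and untagged libraries, with overlapping groups (0.26 ± 0.19, limma adjusted p = 0.355). CCND3, cyclin D3, had 17.2 and 15.8 FPKM in the biotin and 10.5 and 13.9 FPKM in the untagged libraries. Its biotin values were the higher ones, but the difference of 0.42 ± 0.19 did not pass (limma adjusted p = 0.161). CDC25A, the phosphatase that activates CDK2, was low, at 1.04 and 1.19 FPKM in the biotin and 1.57 and 1.84 FPKM in the untagged libraries, and its difference did not pass (-0.35 ± 0.14, limma adjusted p = 0.127). SKP2, which marks the CDK inhibitor p27 for degradation and holds a printed site, varied most within groups, at 15.2 and 10.1 FPKM in the biotin and 12.5 and 23.5 FPKM in the untagged libraries (-0.44 ± 0.33, limma adjusted p = 0.362).

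The E2F factors and the pocket protein p107 were low, and 0 of their 5 tested genes passed in either direction (0 of them also at an unadjusted p below 0.05). Their log2 differences ran from -0.28 to 0.25. E2F1, an activator, was the highest of the 5 listed E2F genes (E2F1, E2F2, E2F3, E2F7 and E2F8) in all 4 libraries, at 3.46 and 4.85 FPKM in the biotin libraries, against 3.67 and 4.43 FPKM in the untagged ones, and the groups overlapped. The activators E2F2 and E2F3 differed by 0.25 ± 0.18 and -0.28 ± 0.14 and the repressor E2F8 by -0.15 ± 0.16, none of which passed (limma adjusted p = 0.344, 0.183 and 0.507). The repressor E2F7, which holds a site, was not tested, at 0.906 and 1.03 FPKM in the biotin and 0.917 and 0.866 FPKM in the untagged libraries. RBL1, which encodes p107, had 2.80 and 3.0 FPKM in the biotin libraries, against 3.27 and 3.56 FPKM in the untagged ones (-0.18 ± 0.14, limma adjusted p = 0.374).

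Of the 3 licensing genes 1 fell and 0 rose. GMNN, geminin (chr6:24775413-24786097), had 8.60 and 7.73 FPKM in the biotin libraries, against 13.2 and 14.1 FPKM in the untagged libraries. The values within each group were close and the groups far apart (-0.68 ± 0.16, limma adjusted p = 0.0315, and 0.0928 to 0.141 with a library left out). CDT1, the loading factor that geminin binds, overlapped between groups, at 7.02 and 5.51 FPKM in the biotin and 5.29 and 5.98 FPKM in the untagged libraries (0.12 ± 0.17, limma adjusted p = 0.623). ORC1, the subunit of the origin recognition complex whose level changes through the cycle, had 7.25 and 3.84 FPKM in the biotin and 2.68 and 2.35 FPKM in the untagged libraries. Biotin replicate 1 stood well above biotin replicate 2, and the difference of 0.85 ± 0.26 did not pass (limma adjusted p = 0.0617). Without biotin replicate 2 it passed at an adjusted p of 0.0292 (limma), and without biotin replicate 1 it did not, at 0.197.

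Of the 4 genes that activate the helicase 0 passed, and 1 of them, GINS2, had an unadjusted p below 0.05. CDC45 had 2.92 and 3.54 FPKM in the biotin and 3.31 and 3.04 FPKM in the untagged libraries, with the groups interleaved. The 3 GINS subunits covered here form 1 complex with GINS4, and GINS1 differed least, by -0.10 ± 0.15 (limma adjusted p = 0.660). GINS2 had 1.75 and 2.46 FPKM in the biotin libraries, against 3.57 and 3.38 FPKM in the untagged ones (-0.54 ± 0.16, limma adjusted p = 0.0605). GINS3 had 4.44 and 3.79 FPKM in the biotin libraries, against 6.09 and 5.08 FPKM in the untagged ones (-0.36 ± 0.16, limma adjusted p = 0.150). Both biotin values were below both untagged values in GINS2 and GINS3, as they were in 37.7% of all tested genes.

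The clamp loader held the 2 largest increases. RFC1, its large subunit (hg38 chr4:39287449-39366381), had 25.3 and 30.7 FPKM in the biotin libraries, against 6.26 and 6.47 FPKM in the untagged libraries. The means were 28.0 ± 3.78 and 6.36 ± 0.150 FPKM (SD, n = 2 each), a ratio of 4.4 and a log2 difference of 1.97 ± 0.18 (limma adjusted p = 0.00151, and 0.0106 to 0.0499 with a library left out). RFC5, a small subunit (chr12:118016701-118032237), had 18.5 and 14.4 FPKM in the biotin libraries, against 5.90 and 5.37 FPKM in the untagged ones. Its means of 16.4 ± 2.89 and 5.63 ± 0.372 FPKM gave a log2 difference of 1.38 ± 0.18 (limma adjusted p = 0.00552). Without untagged replicate 1 or 2 the adjusted p of RFC5 was 0.0689 or 0.0691 (limma), and without a biotin library it still passed. The other small subunits, which assemble with both, showed no such rise. RFC2 had 9.37 and 8.22 FPKM in the biotin and 10.3 and 11.7 FPKM in the untagged libraries, and RFC4 had 12.9 and 11.1 against 14.7 and 14.2 FPKM, lower in biotin without passing (-0.29 ± 0.17 and -0.25 ± 0.17, limma adjusted p = 0.243 and 0.315). RFC3, which carries 2 of the printed sites, had 6.15 and 7.38 FPKM in the biotin and 6.18 and 6.97 FPKM in the untagged libraries, so the groups overlapped (0.03 ± 0.16, limma adjusted p = 0.898). PCNA, the clamp itself, had 14.5 and 13.0 FPKM in the biotin libraries, against 20.2 and 21.2 FPKM in the untagged ones. Its groups were apart in the direction opposite to RFC1, and the difference of -0.55 ± 0.17 did not pass (limma adjusted p = 0.0606).

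**Figure D3:**
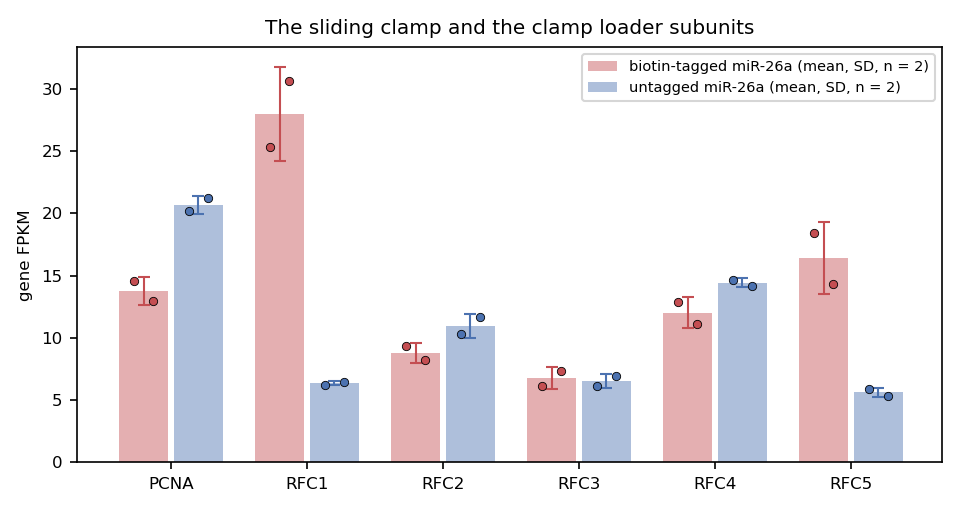
Gene FPKM of PCNA and the RFC subunits; bars are means, error bars SD (n = 2) and points the libraries. RFC1 averaged 28.0 FPKM in biotin and 6.36 in untagged libraries and RFC5 16.4 and 5.63, while RFC2, RFC3 and RFC4 had biotin means of 8.79, 6.77 and 12.0 FPKM and untagged means of 11.0, 6.57 and 14.4.

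Of the 5 polymerase and primase genes 1 was higher and 2 were lower, beside 13.1% higher and 9.32% lower among all tested genes. These 5 genes are too few to set apart from those shares. POLE2, an accessory subunit of the leading-strand polymerase epsilon (chr14:49643552-49688380), showed the largest decrease of the 35 genes. It had 9.12 and 10.3 FPKM in the biotin libraries, against 17.9 and 18.4 FPKM in the untagged libraries, a log2 difference of -0.84 ± 0.16 (limma adjusted p = 0.0187, and 0.0662 to 0.101 with a library left out). The catalytic subunit of the same enzyme, POLE, did not pass, at 3.59 and 4.66 FPKM in the biotin and 3.76 and 3.31 FPKM in the untagged libraries (0.17 ± 0.17, limma adjusted p = 0.485). POLD1, the catalytic subunit of polymerase delta (chr19:50384323-50418018), had 12.6 and 14.2 FPKM in the biotin libraries, against 7.87 and 8.76 FPKM in the untagged ones. It was the only polymerase gene among these 5 to rise (0.62 ± 0.17, limma adjusted p = 0.0426, and 0.106 to 0.170 with a library left out). PRIM1, the primase subunit that starts each new strand with RNA (chr12:56731580-56752362), had 3.50 and 3.82 FPKM in the biotin libraries, against 6.97 and 5.39 FPKM in the untagged ones (-0.62 ± 0.17, limma adjusted p = 0.0458, and 0.0859 to 0.185 with a library left out). POLA1, the polymerase that extends these primers, was low and differed by -0.16 ± 0.14 (limma adjusted p = 0.449).

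The 2 genes that process Okazaki fragments did not pass. FEN1, the flap nuclease, holds a printed site and had 5.81 and 5.28 FPKM in the biotin and 5.96 and 7.30 FPKM in the untagged libraries (-0.22 ± 0.16, limma adjusted p = 0.367). LIG1, DNA ligase I, lay at the limit for testing, at 0.991 and 1.10 FPKM in the biotin and 1.47 and 0.987 FPKM in the untagged libraries (-0.12 ± 0.17, limma adjusted p = 0.635).

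Of the 3 nucleotide supply genes, 1 rose and 1 fell, both of them among the more abundant of the 37 RNAs. RRM2, the regulated small subunit of ribonucleotide reductase (chr2:10122736-10131419), had 31.8 and 26.7 FPKM in the biotin libraries, against 15.9 and 16.2 FPKM in the untagged libraries. All biotin values exceeded all untagged ones (0.82 ± 0.18, limma adjusted p = 0.0258, and 0.0653 to 0.119 with a library left out). RRM1, the large subunit of the same enzyme, differed in the other direction without passing, at 6.45 and 7.64 FPKM in the biotin and 10.4 and 9.75 FPKM in the untagged libraries (-0.46 ± 0.16, limma adjusted p = 0.0875). TYMS, thymidylate synthase (chr18:657604-673499), had 27.9 and 23.0 FPKM in the biotin libraries, against 46.2 and 40.4 FPKM in the untagged ones. Its groups were far apart and its difference was -0.75 ± 0.20 (limma adjusted p = 0.0417, and 0.0842 to 0.164 with a library left out). Histone supply was represented by SLBP, which binds the stem-loop of histone mRNAs and holds a printed site, and by CHAF1A, a subunit of the chromatin assembly factor. SLBP had 9.73 and 8.68 FPKM in the biotin and 12.2 and 16.3 FPKM in the untagged libraries (-0.57 ± 0.19, limma adjusted p = 0.0817), and CHAF1A had 0.930 and 0.834 FPKM against 0.792 and 0.558 FPKM and was not tested.

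The summed values rest on 79 transcripts, and 21 of the 37 genes had more than 1 in the deposited tables. For genes with several nearly identical transcripts the division between them was unsteady. RFC1 was divided between NM_002913, at 19.1 and 17.3 FPKM in the biotin and 4.67 and 0 FPKM in the untagged libraries, and NM_001204747, at 6.21 and 13.4 against 1.59 and 6.47 FPKM. The sum over both was close within each group, while either transcript alone was not. In RFC5 the untagged signal lay mostly on NM_001206801 in replicate 1 and on NM_007370 in replicate 2, whereas NM_007370 had 12.5 and 8.51 FPKM in the biotin libraries. The division of POLD1 was alike within each group and was not tested. Its coding transcript NM_002691 had 12.6 and 14.2 FPKM in the biotin libraries, against 3.21 and 3.92 FPKM in the untagged ones, and its noncoding transcript NR_046402 was listed at 0 in both biotin libraries and at 4.66 and 4.85 FPKM in the untagged ones. Fitted by the transcript with the highest mean FPKM, POLD1 differed by 1.66 ± 0.17 (limma adjusted p = 0.0382). In that fit RFC1 differed by 3.01 ± 0.95 and RFC5 by 2.17 ± 1.03 and neither passed (limma adjusted p = 0.172 and 0.291).

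**Figure D4:**
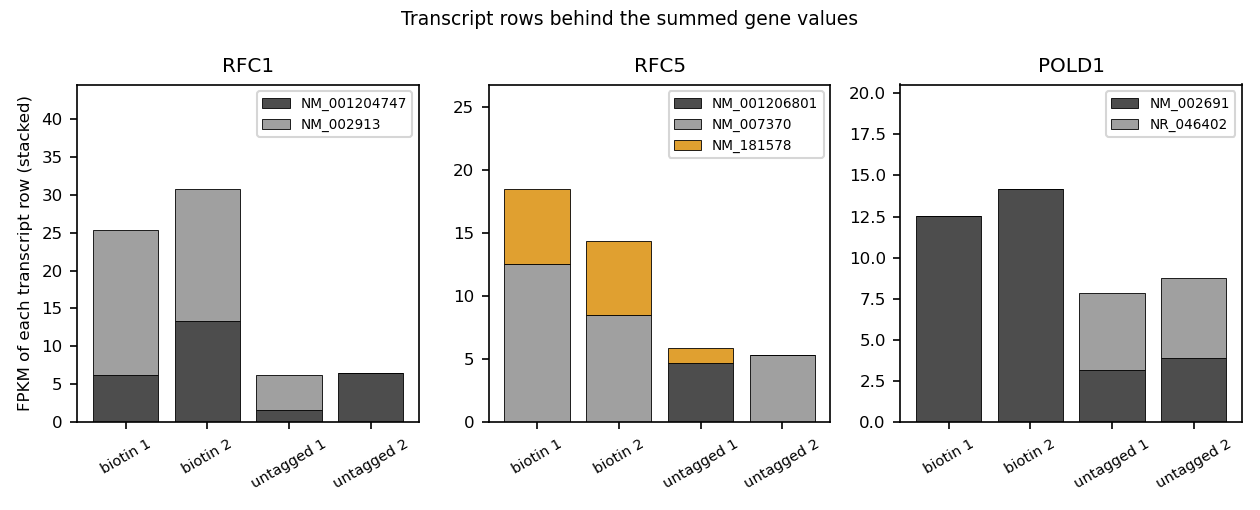
FPKM of each transcript of RFC1, RFC5 and POLD1, stacked to the gene value, in the 2 biotin libraries (left) and the 2 untagged libraries (right). POLD1 consists of NM_002691 alone in the biotin libraries, and of NM_002691 and NR_046402 in the untagged ones; the shares of the RFC1 and RFC5 transcripts differ between libraries of 1 group.

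Overlapping genes limit some of these values, because the strand setting used in counting is not given. Pseudogenes may limit others, which was not tested. Exons of 12 members overlap a gene on the other strand by at least 50 bases in GENCODE 29, and those of 3, the called genes PRIM1, POLD1 and RRM2, overlap a gene on the same strand for which no value was found by name. In addition 9 members have a pseudogene named after them, CDK4, RFC5, RRM2 and TYMS among the called ones. WSB2, which overlaps RFC5 on the other strand, was about equal in both groups, at 32.0 and 34.6 FPKM in the biotin and 29.4 and 37.7 FPKM in the untagged libraries (0.00 ± 0.20, limma adjusted p = 0.993). ENOSF1, which overlaps TYMS, differed in the direction opposite to TYMS, at 9.44 and 5.82 FPKM in the biotin and 3.76 and 2.94 FPKM in the untagged libraries (0.96 ± 0.24, limma adjusted p = 0.0346). TSPAN31, which overlaps CDK4, was listed at 0 in all 4 libraries, and PMEL and HSD17B6, which overlap CDK2 and PRIM1, stayed below 0.5 FPKM in all 4.

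A wider list of 75 other G1/S and replication genes was examined for comparison, of which 71 were tested. Of these 10 rose (14.1%, beside 13.1% of all tested genes) and 8 fell (11.3%, beside 9.32%), with a median log2 difference of -0.23. The licensing genes had 4 increases among 13 and 1 decrease. They were the MCM helicase subunit MCM3, at 60.1 and 52.1 FPKM in the biotin against 15.2 and 14.2 FPKM in the untagged libraries (1.86 ± 0.18), MCM7 (0.92 ± 0.19), ORC6 (0.85 ± 0.17) and the loader CDC6 (0.79 ± 0.15), while ORC3 fell (-0.56 ± 0.14). Of MCM2 to MCM7, 2 of 6 rose and 0 fell. The largest increase of the 71 was the histone chaperone ASF1B, at 153.5 and 111.6 FPKM in the biotin against 30.5 and 29.2 FPKM in the untagged libraries (2.1 ± 0.22), and its paralog ASF1A fell (-0.83 ± 0.19). RRM2B, the p53-induced relative of RRM2, rose (1.27 ± 0.15), as did POLA2 of the primase complex (0.99 ± 0.20) and ATAD5, which unloads PCNA (0.85 ± 0.15). The CDK4 inhibitor gene CDKN2B (0.60 ± 0.15) and the alternative clamp loader gene CHTF18 (0.53 ± 0.13) rose least. The dUTPase gene DUT (-0.98 ± 0.20), the polymerase epsilon subunit POLE3 (-0.85 ± 0.22), the CDC7 activator DBF4 (-0.80 ± 0.14), cyclin A2 (CCNA2, -0.77 ± 0.16), the single-strand binding subunit RPA1 (-0.66 ± 0.17) and POLD3 (-0.53 ± 0.14) fell. Among these 18 genes MCM3 had the lowest limma adjusted p, 0.00206, and RPA1 the highest, 0.0408. Each lost its call in at least 1 fit with a library left out, 13 of them in all 4.

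Of 5 genes published as miR-26 targets, CDC6 rose, as did 13.1% of all tested genes, 3 did not pass and CCND2 was too low to test. The log2 difference of CDC6 was 0.68 to 0.90 with a library left out. Seed sites of these 5 genes are not given here. CCNE1 had 2.66 and 2.30 FPKM in the biotin and 1.79 and 2.67 FPKM in the untagged libraries (0.12 ± 0.18, limma adjusted p = 0.655). CCNE2 had 2.50 and 2.22 FPKM against 2.88 and 4.79 FPKM (-0.50 ± 0.21, limma adjusted p = 0.142), and CDK6 had 0.622 and 1.20 FPKM against 0.771 and 1.33 FPKM (-0.10 ± 0.22, limma adjusted p = 0.756). CCND2 was close to absent, at 0.0102 and 0.00874 FPKM in the biotin libraries and 0 in both untagged ones. RB1, which encodes the retinoblastoma protein, had 3.41 and 3.89 FPKM in the biotin and 4.40 and 5.35 FPKM in the untagged libraries (-0.33 ± 0.16, limma adjusted p = 0.171).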

How the data were processed

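The submitters' processing notes name hg38 with TopHat2 2.0.9 and Cufflinks 2.1.1, besides FastQC 0.10.1, Cuffdiff and cutadapt; how strand, settings and annotation were chosen is not given in the sources used here. The authors deposited 1 table per library of 53209 transcripts, and per the file headers its values are FPKM. The deposited coverage (a signal) served only to estimate depth from its ratio to FPKM with reads of 50 bases, and the deposited transcript length, in nt, only to describe transcripts and estimate reads. Of 46699 accessions, 98.7% were named from the RefSeq gene table or GENCODE 29, and FPKM was summed per gene. The test took genes that reached 1 FPKM in 2 or more libraries; short structured RNA genes and 22 genes with a failed or excess-data status were left out. The groups were compared by limma 3.58.1 under R 4.3.3 (eBayes with a variance trend, 2 residual and 4.20 prior degrees of freedom) on log2(FPKM + 1), which understates the change of low genes. The fit was also run on simulated data with changes added on that log scale, which cannot check this understatement. Differences are biotin minus untagged, and p-values cover only the spread between these libraries. Seed sites were searched in 1 transcript per gene, that of highest mean FPKM or, for RFC5, the longest coding one. The members and lists were chosen with earlier results of these data known; every member is named, and of the other pathway genes those past the threshold, up to 8 per direction by size, besides RB1, CCNE1, CCNE2, CCND2, CDK6 and CDC6. CHTF18 and CDKN2B fall outside this rule and were named after their values were seen. Alternatives were a replicate block, each library left out, other pseudocounts, filters and scalings, single transcripts, short RNA genes kept and a fit with no variance trend.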

Additional observations from a re-analysis of the deposited data

How the results depend on the processing

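No log2 difference past the threshold changed sign for any of the 35 tested members under the alternatives run. RFC1 kept its call in every alternative but single transcripts. Over all genes 1307 rose and 926 fell (58.5% increases), against 46.9% increases with upper-quartile scaling. Without a filter on low values 653 rose and 230 fell, and with single transcripts 336 and 142; with a library left out 189 to 680 rose and 32 to 223 fell. Of the members, 2 rose and 1 fell without a filter, 1 and 0 with single transcripts, and 1 to 3 and 0 with a library left out; 3 fell with short RNA genes kept. Of the other pathway genes, 3 rose and 0 fell without a filter, 2 and 0 with single transcripts, and 0 to 4 and 0 to 1 with a library left out. Of these, 6 rose at a mean FPKM of at least 5, and 16 fell with upper-quartile, 13 with quantile and 5 with median-of-ratios scaling. PCNA passed in 4 alternatives (mean FPKM of at least 5, upper-quartile, quantile, no variance trend) and SLBP in 2 (upper-quartile, quantile). Calls were lost in such alternatives too. PRIM1 lost its call with a pseudocount of 5, median-of-ratios, quantile, no variance trend and short RNA genes kept. It was also missing at a mean FPKM of at least 5, where it was not tested. POLD1 lost its call with upper-quartile, quantile and short RNA genes kept. TYMS lost its call with median-of-ratios and short RNA genes kept, and CDK2 with short RNA genes kept. The median member difference was -0.25 and -0.092 with pseudocounts of 0.1 and 5, -0.27 at a mean FPKM of at least 5, -0.24 and -0.12 with upper-quartile and median-of-ratios scaling, -0.13 with single transcripts, and -0.23 to -0.13 with a library left out. Fewer libraries leave fewer degrees of freedom; other causes were not tested. Replicate numbers are shared between groups without a stated common day, and same-numbered libraries did not deviate together (r = 0.00246 across genes). With the replicate block 534 genes fell, 2 members rose (RFC1 and RFC5) and 1 fell (POLE2), and 4 other pathway genes fell.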
